A study of Mus musculus with 24 samples.

Results

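Genes that mark astrocytes and microglia, the main support cells and the resident immune cells of the brain, were followed in whole brain of mice fed 4 levels of selenium. The genes were taken by symbol from the deposited table of normalized reads, where 10 of 10 were found among 21894 genes. They comprise 4 astrocyte genes, Gfap, Aqp4, Gja1 and S100b, and 6 microglia genes, Tmem119, P2ry12, Cx3cr1, Csf1r, Trem2 and Aif1. Male C57BL/6J mice, an inbred strain, were 8 weeks old when they began diets with 0, 0.1 or 0.4 ppm selenium, or with 2.25 ppm, and were kept on them for 5 weeks. All groups share the strain, the sex and the length of feeding, and no group carried a mutation or a drug per the labels. Brain and liver each gave 3 libraries per diet, 24 in all, and the 3 of a diet are told apart here by the letters a, b and c, which follow column order and pair nothing. The labels do not say whether the libraries of a group came from separate animals, so the spread behind each p-value may be technical.

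Astrocytes buffer potassium and water around neurons, take up released transmitter and are coupled to each other by gap junctions, and in injury they build up intermediate filaments. Microglia survey the tissue through purine and chemokine receptors, live on signals through the CSF1 receptor, and clear debris with the help of the receptor TREM2. In diseased brain, microglia are known to lower the surveillance genes and raise genes of the TREM2 pathway, while astrocytes raise Gfap. Both cell types make selenoproteins, a family that includes enzymes that remove peroxides.

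Each value is a normalized read number, the reads on a gene divided by 1 factor per library. That factor matches the median ratio of a library's reads to their geometric mean over all 24 libraries, gene by gene. Levels of a gene can so be compared between libraries of a tissue. Between tissues the factor does not follow depth. Brain 0 ppm a, with 13.4 M gene-assigned reads, had 1.32, and liver 0.1 ppm a, with 13.9 M, had 0.715. Depth in brain was 12.9 to 17.8 M gene-assigned reads per library, and 3 reads, the limit that a count of 0 allows, corresponded to 1.75 to 2.34 normalized reads, for counting error only. Defining markers of both cell types were present. Besides the 10 genes, the astrocyte markers Slc1a3 and Aldh1l1 averaged 6309 to 7029 and 628 to 676 normalized reads by diet, and the microglia marker Fcrls averaged 154 to 197. The libraries 0 ppm a and 0.1 ppm b stood apart because markers of the pituitary gland summed to 89168 and 52972 normalized reads there, against 44.1 to 589.9 in the other brain libraries. Tests were therefore also run without them. Markers of brain regions varied as well. Summed markers of cerebellum ranged from 2458 to 14760.4 and those of striatum from 2054 to 6526.

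For 7 of the 10 genes RefSeq gives a start site on GRCm38.p6, and the 250 bases before it are printed for the pair at the ends of the brain to liver comparison. S100b, the gene with the highest ratio of brain to liver level, over at most 3 reads in a liver library, lies on chr10 on the plus strand, with the window at chr10:76253586-76253835. Aif1, the gene with the lowest brain to liver ratio, lies on chr17 on the minus strand, with the window at chr17:35176053-35176302. Capitals mark the only match to the letters searched, GAGGAA or its reverse complement TTCCTC, which form the core of sites of PU.1, a transcription factor of myeloid cells.
S100b: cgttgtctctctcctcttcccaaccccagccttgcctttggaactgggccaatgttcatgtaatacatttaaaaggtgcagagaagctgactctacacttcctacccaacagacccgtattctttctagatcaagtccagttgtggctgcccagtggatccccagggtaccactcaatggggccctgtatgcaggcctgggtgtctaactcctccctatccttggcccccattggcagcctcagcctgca
Aif1: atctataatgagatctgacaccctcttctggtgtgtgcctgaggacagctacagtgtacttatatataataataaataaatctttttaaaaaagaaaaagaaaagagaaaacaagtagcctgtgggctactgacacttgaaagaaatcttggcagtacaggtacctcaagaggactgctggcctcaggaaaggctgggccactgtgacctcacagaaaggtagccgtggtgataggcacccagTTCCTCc
The letters were found on either strand in 3 of the 7 windows, at 56 bases before the start in Gja1, 7 bases in Aif1 and 40 bases in Trem2. In all 32851 RefSeq windows of this length, 23.3% held them. The match is a description of these letters and says nothing of binding.

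None of the 10 genes passed the test in the 5 comparisons of diets fitted in brain. The other pairs of diets were not fitted. A single limma fit to the 12 brain libraries, with Benjamini-Hochberg adjustment over 21127 genes and a threshold of 0.05, called 0 of 10 for any difference among the 4 diets, where 0.0189% of all tested genes were called. For 0 ppm against the supplemented mean, the average of the other 3 diets, it called 0 of 10, where 0.0189% of all genes were called. It called 0 of 10 for 0 against 0.1 ppm, where the share over all genes was 0.0284%. For 0.4 against 0.1 ppm it called 0 of 10, beside 0.00947% of all genes, and for 2.25 against 0.1 ppm 0 of 10, beside 0.435%. The edgeR quasi-likelihood test on the recovered reads called 0 of 10 in each of these 5 comparisons as well, in the same order beside 0.0189%, 0.00473%, 0.0189%, 0.0142% and 0.379% of all genes.

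Without adjustment, 1 of the 10 genes reached a p below 0.05 in limma for any difference among diets, beside 9.46% of all genes, and that gene was Aqp4. For 2.25 against 0.1 ppm it was again Aqp4, the 1 of 10 that lay lower with such a p, beside 6.61% of all genes lower, and 0 of 10 lay higher, beside 6.44% of all genes. In the other comparisons 0 of 10 did, beside 5.55% of all genes for 0 ppm against the supplemented mean, 6.95% for 0 against 0.1 ppm and 8.08% for 0.4 against 0.1 ppm. With edgeR, Aqp4 was likewise the 1 of 10 for any difference, beside 9.32% of all genes, and for 2.25 against 0.1 ppm, beside 12.9%. The edgeR counts in the other 3 comparisons were 0 of 10, beside 5.48%, 6.92% and 8.08% of all genes in the order above.

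A missing call does not show equal levels, so the intervals matter. With 95% confidence for each gene alone, the 0 ppm level of the 10 genes lay between 0.809 and 1.53 times the supplemented mean. Relative to 0.1 ppm, the interval bounds ran from 0.767 to 1.48 times at 0 ppm, from 0.551 to 1.32 times at 0.4 ppm and from 0.708 to 1.38 times at 2.25 ppm. These are on the log2(value + 1) scale. The widest intervals were those of Aif1, the gene with the fewest reads.

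**Figure D1:**
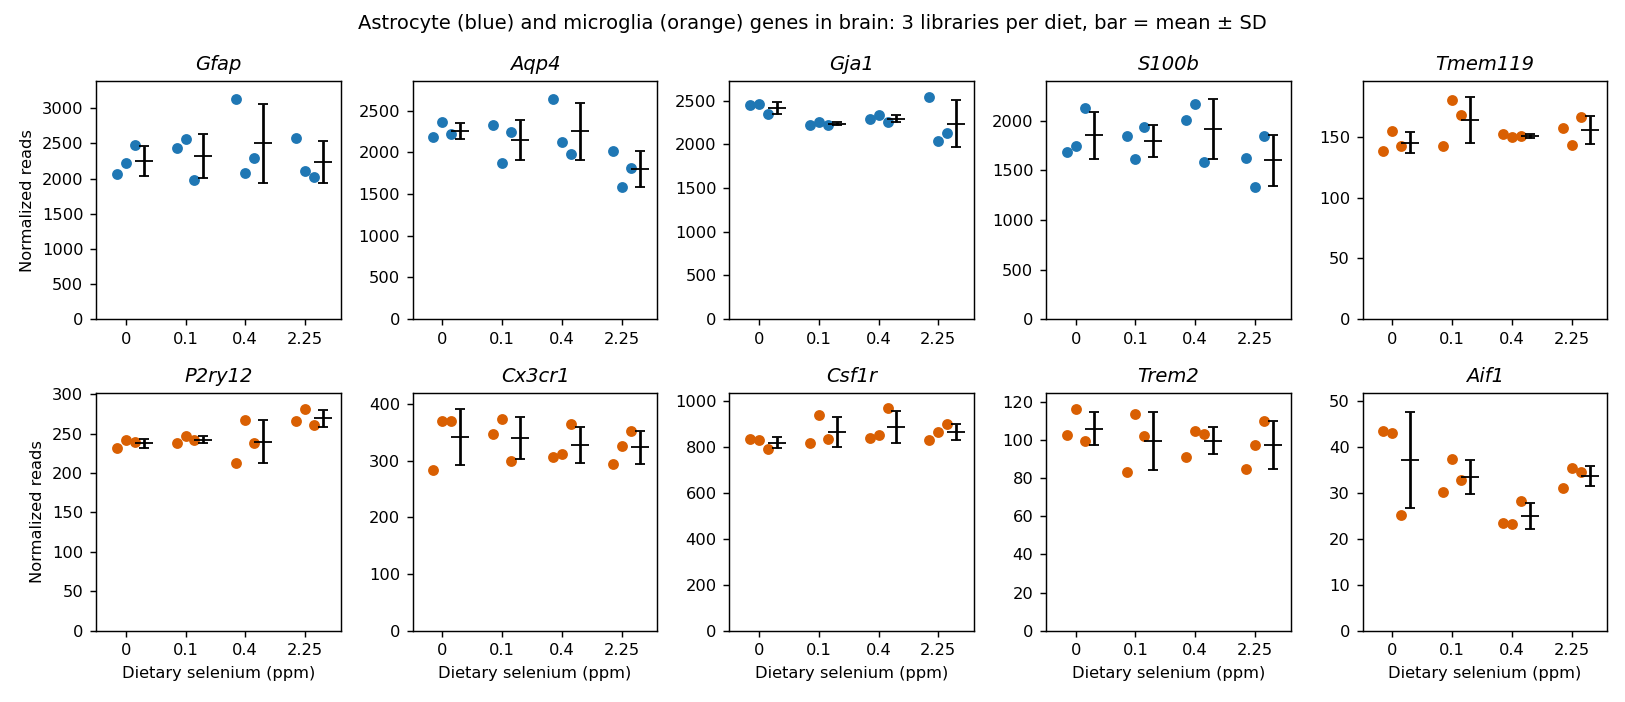
Normalized reads of the 10 genes in each brain library (y axis, starting at 0) by dietary selenium in ppm (x axis). Points are single libraries in the order a, b, c, and bars are the mean ± SD of 3 libraries. Aqp4 averaged 1801 at 2.25 ppm, against 2149 at 0.1 ppm, and the lowest Aif1 mean stood at 0.4 ppm.

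Among the astrocyte genes, Aqp4, the water channel of astrocyte endfeet, came nearest to a difference, with its lowest levels at the highest dose. Aqp4 had 2180.3, 2360.3 and 2222 normalized reads at 0 ppm, 2333, 1877 and 2238 at 0.1 ppm, 2640.0, 2128 and 1983 at 0.4 ppm, and 2011, 1578 and 1813 at 2.25 ppm. The 2.25 ppm libraries overlapped those at 0.1 and 0.4 ppm and lay below all those at 0 ppm. The mean at 2.25 ppm was 1801 ± 216, against 2149 ± 241 at 0.1 ppm (SD, n = 3 each). That log2 difference of -0.26 (SE 0.11) did not pass limma (adjusted p = 0.355), with a 95% interval from -0.50 to -0.01. Without 2.25 ppm b, which held the lowest Aqp4 value, the difference was -0.16 (adjusted p = 0.663), and without the 2 libraries rich in pituitary transcripts it was -0.35 (adjusted p = 0.226). Whole brain was sampled, so fewer cells of a type and less RNA per cell cannot be told apart.

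Gfap, the intermediate filament protein that astrocytes build up when reactive, varied within each diet. It had 2060.2, 2219 and 2477 normalized reads at 0 ppm, 2432, 2559 and 1974 at 0.1 ppm, 3136, 2072 and 2296 at 0.4 ppm, and 2580.3, 2106 and 2029 at 2.25 ppm. Each pair of diets overlapped, and the highest value, in 0.4 ppm a, stood apart from the other 2 libraries of its diet. The Gfap mean at 0 ppm was 2252 ± 210.3, against 2322 ± 308 at 0.1 ppm (SD, n = 3 each), a log2 difference of -0.04 (SE 0.14, limma adjusted p = 0.981).

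Gja1 encodes connexin 43, the main gap junction protein of astrocytes, and was the steadiest of the 4. Gja1 had 2448, 2464 and 2341 normalized reads at 0 ppm, 2223, 2252 and 2223 at 0.1 ppm, 2285, 2338 and 2253 at 0.4 ppm, and 2539.8, 2033 and 2129 at 2.25 ppm. The 0 ppm libraries lay above all those at 0.1 and 0.4 ppm, and the 2.25 ppm libraries spanned the whole range. With means of 2418 ± 66.4 at 0 ppm and 2233 ± 16.7 at 0.1 ppm (SD, n = 3 each), the log2 difference was 0.11 (SE 0.07, limma adjusted p = 0.825).

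S100b encodes a calcium-binding protein of astrocytes and of some oligodendrocyte lineage cells. Its libraries held 1689, 1745 and 2124 normalized reads at 0 ppm, 1844, 1618 and 1934 at 0.1 ppm, 2004, 2169.7 and 1587 at 0.4 ppm, and 1628, 1328 and 1845 at 2.25 ppm. All diets overlapped. The log2 difference of 2.25 from 0.1 ppm was -0.18 (SE 0.13, limma adjusted p = 0.616).

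The library 2.25 ppm b held the lowest value of 3 of the 4 astrocyte genes, Aqp4, Gja1 and S100b. In the same library the summed oligodendrocyte markers were the lowest of the 12, at 62130 of a range up to 91592 normalized reads, and the summed striatum markers were the highest, at 6526. The library 0.4 ppm a held the highest Gfap and Aqp4 and the lowest summed neuron markers, 73063 of a range up to 86022. Whether tissue composition had a part in the astrocyte values was not tested.

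The microglia genes also fell short of the threshold. Tmem119, a membrane protein that sets microglia apart from other macrophages, had 138, 155 and 142 normalized reads at 0 ppm, 143, 180.0 and 168 at 0.1 ppm, 153, 149.5 and 151 at 0.4 ppm, and 158, 143 and 166 at 2.25 ppm. All diets overlapped. Its mean was 145 ± 8.83 at 0 ppm, against 164 ± 18.97 at 0.1 ppm (SD, n = 3 each), a log2 difference of -0.17 (SE 0.10, limma adjusted p = 0.814).

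P2ry12 encodes the ADP receptor by which microglia extend processes towards injury. P2ry12 had 232, 242 and 239 normalized reads at 0 ppm, 238, 247 and 242 at 0.1 ppm, 213, 267 and 238 at 0.4 ppm, and 266, 281 and 261 at 2.25 ppm. Each 2.25 ppm library lay above all those at 0 and 0.1 ppm, while the 0.4 ppm libraries overlapped every other diet. The mean was 269 ± 10.7 at 2.25 ppm, against 242 ± 4.55 at 0.1 ppm (SD, n = 3 each), and the log2 difference of 0.15 (SE 0.08) did not pass (limma adjusted p = 0.461).

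Cx3cr1 encodes the receptor for fractalkine, a chemokine that neurons present. It had 284, 371 and 369 normalized reads at 0 ppm, 347, 373 and 300.0 at 0.1 ppm, 306, 312 and 364 at 0.4 ppm, and 294, 325 and 352 at 2.25 ppm. Every diet overlapped every other, and the 0 and 0.1 ppm means were 341 ± 49.5 and 340.1 ± 37.0 (SD, n = 3 each).

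Csf1r encodes the receptor tyrosine kinase on which microglia depend for survival. There were 837, 829 and 793 normalized reads at 0 ppm, 819, 939.8 and 836 at 0.1 ppm, 841, 854 and 969 at 0.4 ppm, and 831, 865 and 901 at 2.25 ppm. The 0 ppm libraries lay below all those at 0.4 ppm and overlapped the others. The 0 ppm difference from the supplemented mean was -0.09 on the log2 scale (SE 0.06, limma adjusted p = 0.932). Exons of Csf1r share 873 of their 5774 bases with Hmgxb3 on the other strand, and the use of strand in counting is not given in the sources used here, so its level is uncertain.

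Trem2 encodes a lipid-sensing receptor of microglia needed for their disease-associated state. Trem2 had 103, 116 and 99.3 normalized reads at 0 ppm, 83.1, 113 and 102 at 0.1 ppm, 91.3, 105 and 103 at 0.4 ppm, and 84.6, 97.3 and 110.0 at 2.25 ppm. The diets overlapped throughout, with means of 106 ± 8.87 at 0 ppm, 99.4 ± 15.3 at 0.1 ppm, 99.7 ± 7.29 at 0.4 ppm and 97.3 ± 12.7 at 2.25 ppm (SD, n = 3 each).

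Aif1 encodes IBA1, the actin-binding protein used to stain microglia, and was the gene with the fewest reads, 32 to 64 per library. Its normalized reads were 43.3, 42.9 and 25.1 at 0 ppm, 30.2, 37.4 and 32.6 at 0.1 ppm, 23.4, 23.2 and 28.1 at 0.4 ppm, and 31.1, 35.3 and 34.5 at 2.25 ppm. All 0.4 ppm libraries lay below those at 0.1 and 2.25 ppm, and the 0 ppm libraries ran from 25.1 to 43.3 and overlapped every other diet. The mean was 24.9 ± 2.81 at 0.4 ppm, against 33.4 ± 3.66 at 0.1 ppm (SD, n = 3 each), and the log2 difference of -0.41 (SE 0.21) did not pass (limma adjusted p = 0.647).

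**Figure D2:**
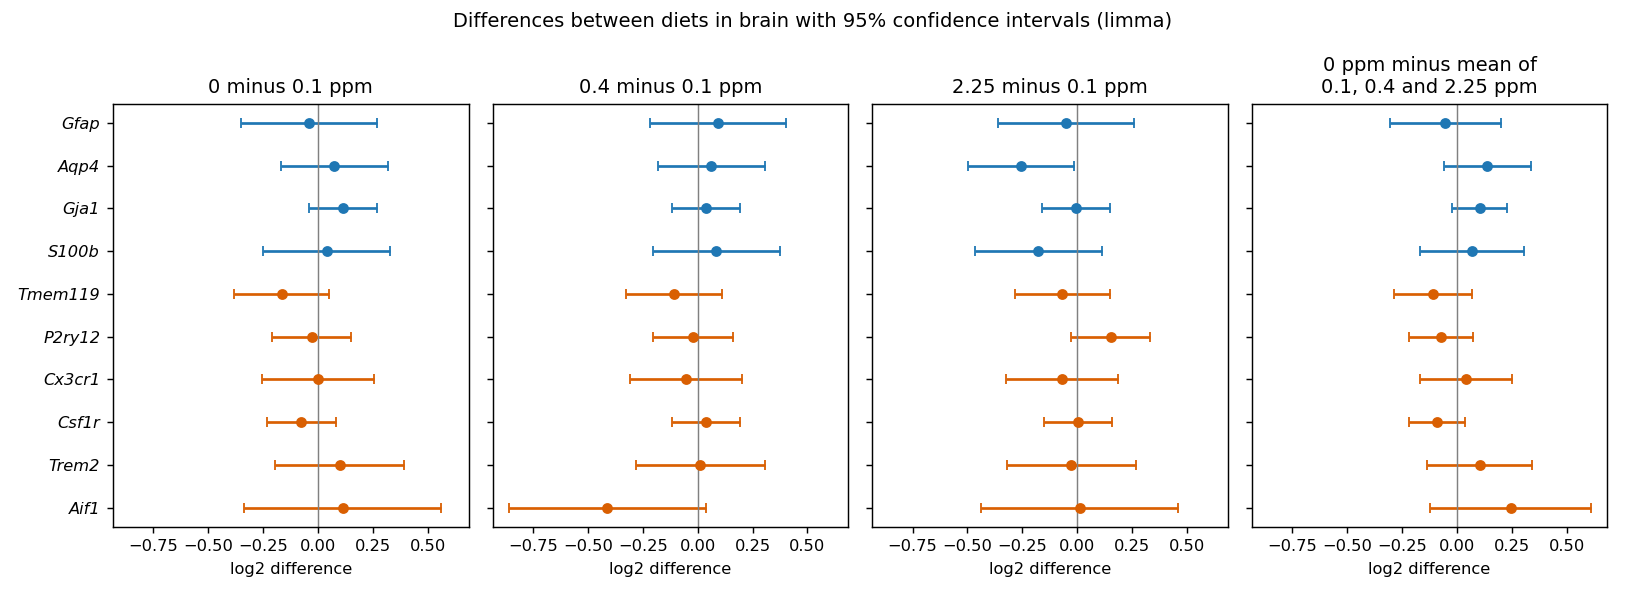
Log2 differences between diets in brain (x axis) for the 10 genes (rows; astrocyte genes blue, microglia genes orange), with 95% confidence intervals from limma. The interval of Aqp4 for 2.25 minus 0.1 ppm, from -0.50 to -0.01, is the only one that leaves out 0, before adjustment over all genes.

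Counted over the 6 possible pairs of diets, the libraries of both diets did not overlap in 9 of 60 comparisons of a gene and a pair. These were spread over 5 genes, 3 pairs in Gja1, 2 each in Aif1 and P2ry12, and 1 each in Aqp4 and Csf1r. Over all tested brain genes, 11.6% did not overlap between 0 and 0.1 ppm, 13.4% between 0.4 and 0.1 ppm and 18.5% between 2.25 and 0.1 ppm. The share was 10.6% between 0 and 0.4 ppm, 12.9% between 0 and 2.25 ppm and 12.6% between 2.25 and 0.4 ppm. The pairs share diets and so are not independent.

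The fitted differences were small and in both directions. For 0 ppm against the supplemented mean, 6 of 10 genes were fitted above 0 with a median log2 difference of 0.06, beside 49.2% of all genes. Above 0 were also 6 of 10 for 0 against 0.1 ppm, beside 47.9% of all genes, and 6 of 10 for 0.4 against 0.1 ppm, beside 47.4%. For 2.25 against 0.1 ppm 3 of 10 were above 0, with a median of -0.04, beside 49.5% of all genes. In the authors' deposited table of unadjusted p-values, whose test is not given in the sources used here, 6 of 60 comparisons of these genes were below 0.05. The lowest in the authors' deposited table was 0.00949, for Gja1 at 0 against 0.1 ppm, followed by 0.00953 for P2ry12 at 0 against 2.25 ppm. By pair of diets, 5.48% to 11.1% of all genes in the authors' deposited table were below 0.05.

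Levels can be set side by side between genes once divided by the length of all annotated exons. S100b led with 1208 normalized reads per kb of exon on average over the 12 brain libraries, followed by Gfap at 552, Aqp4 at 339 and Gja1 at 224. The microglia genes lay below all of these, with Csf1r at 149 normalized reads per kb, P2ry12 at 97.1, Cx3cr1 at 73.9, Tmem119 at 66.5, Aif1 at 21.1 and Trem2 at 20.3. Neighbours in this order did not overlap over the 12 libraries, except Cx3cr1 with Tmem119 and Aif1 with Trem2. The order uses the full exon length, and transcripts that use fewer exons would move it.

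The spread between libraries differed from gene to gene, from 6.25% to 14.3% among the astrocyte genes and from 6.03% to 21.1% among the microglia genes. The coefficient of variation over the 12 brain libraries was 14.3% for Gfap, 13.4% for Aqp4 and 13.6% for S100b, where counting error alone gives 1.75% to 1.997%. Gja1, at a like depth, had 6.25%. The median over the 2547 brain genes that average 1000 or more normalized reads was 6.54%, so Gja1 lay near it and the other 3 astrocyte genes above it. Among the microglia genes Csf1r had 6.03% where counting alone gives 2.88%, Cx3cr1 had 9.97% where it gives 4.63%, and Trem2 had 10.3% where it gives 8.43%. Tmem119 had 8.05% where counting alone gives 6.81%, and P2ry12 had 7.52% where it gives 5.38%. For Aif1 the value was 21.1%, where counting alone gives 14.9%.

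Each of the 10 genes is annotated as protein-coding on mm10. Gfap is at chr11:102887336-102900912 (minus strand), Aqp4 at chr18:15389496-15410982 (minus), Gja1 at chr10:56377330-56402513 (plus) and S100b at chr10:76253853-76261159 (plus). Among the microglia genes, Tmem119 is at chr5:113793729-113800516 (minus), P2ry12 at chr3:59216272-59262871 (minus) and Cx3cr1 at chr9:119901616-120069879 (minus). Csf1r is at chr18:61100598-61132149 (plus), Trem2 at chr17:48346401-48354147 (plus) and Aif1 at chr17:35170991-35176068 (minus). A value covers the whole gene. Besides Csf1r, exons of Cx3cr1 share 78 bases and those of P2ry12 share 9 bases with a gene on the other strand.

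Correlations over the 12 brain libraries were mostly positive within a cell type and mostly negative across the cell types. All 6 pairs of astrocyte genes had a positive Pearson correlation of log2 values, with a median r of 0.35 and a range from 0.13 to 0.69. Of the 15 pairs of microglia genes 14 were positive, with a median of 0.17, and with each diet centred on its mean the median was 0.37. Of the 24 pairs across the cell types only 3 were positive, with a median of -0.24. The points share depth scaling and tissue composition, and 0 of the 45 pairs passed a permutation test after Benjamini-Hochberg adjustment over the 45.

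The strongest of these was negative, between Aqp4 and P2ry12. Their Pearson r was -0.80 (permutation p = 0.00217, adjusted 0.0976) and their Spearman rho -0.67 (permutation p = 0.0200, adjusted 0.450), two-sided over 12 libraries. Without the 2 libraries farthest from the median Aqp4 level r was -0.48, and with each diet centred on its mean it was -0.60. Aqp4 and S100b had r of 0.69 (permutation p = 0.0142, adjusted 0.320) and rho of 0.55 (permutation p = 0.0675, adjusted 0.712), and r of 0.36 without the 2 farthest libraries.

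**Figure D3:**
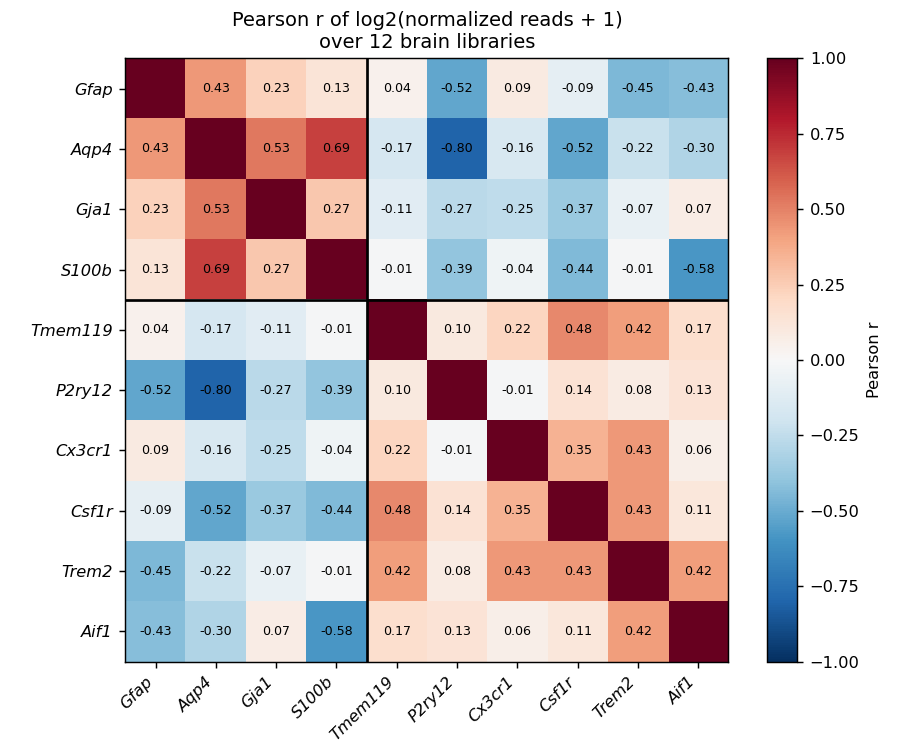
Pearson r of log2(normalized reads + 1) over the 12 brain libraries for each pair of the 10 genes, with r printed in each cell and black lines between astrocyte (first 4) and microglia genes. Blocks within a cell type are mostly red (positive) and those across cell types mostly blue (negative), with r of -0.80 for Aqp4 and P2ry12.

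For each gene, the 10694 other brain genes with a mean of 100 or more were ranked by the same r over the 12 libraries, and the first 2 are given as a description. The highest belonged to S100b, with Tmem229b at r = 0.96 and Kat2b at 0.96, and to Aif1, with Zfr at 0.94 and Nr4a2 at 0.93. Csf1r was followed by Entpd1 at 0.91, an ATP-degrading ectoenzyme of microglia, and by Cpped1 at 0.90. Gja1 was followed by Prkra at 0.90 and Plekhh1 at 0.88, Aqp4 by Rab37 at 0.87 and the tetraspanin Cd9 at 0.87, and Gfap by Snx8 at 0.86 and Amigo2 at 0.82. Trem2 was nearest to Map3k2 at 0.85 and Taok1 at 0.83, P2ry12 to Hey1 at 0.85 and Slc25a44 at 0.83, Cx3cr1 to Zfp821 at 0.84 and Gnai1 at 0.83, and Tmem119 to Cops5 at 0.82 and Arl8a at 0.81. None of these neighbours is another of the 10 genes, by the rule of the search.

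In liver, sequenced beside brain, S100b and Gfap were close to undetected. S100b averaged 1793 normalized reads over the 12 brain libraries, against 1.24 in the 12 liver libraries, where no library had more than 3 reads and 4 had 0. Gfap averaged 2328 in brain, against 5.09 in liver, with at most 7 reads in a liver library. In liver, 3 reads correspond to 3.12 to 5.32 normalized reads.

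The other 8 genes were detected in liver, and 2 of them had more normalized reads there than in brain. Cx3cr1 was 22.9 times higher in brain than in liver, Gja1 18.1 times, Aqp4 15.7 times, Tmem119 7.74 times, P2ry12 5.75 times and Trem2 3.88 times. Aif1 averaged 32.3 normalized reads in brain, against 86.4 in liver, and Csf1r 859.7 in brain, against 1534 in liver. A single read stands for 0.584 to 0.781 normalized reads in brain and 1.04 to 1.77 in liver, so all these ratios depend on that scaling. Before scaling, Csf1r had 1076 to 1608 reads per brain library and 809 to 1536 per liver library, so its order between tissues is uncertain. Aif1 had 32 to 64 and 32 to 88 reads. Liver holds macrophages of its own, the Kupffer cells, whose markers summed to 0.584 to 3.97 normalized reads in brain libraries, against 5373 to 9493.8 in liver libraries.

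Within liver, 0 of the 10 genes differed at 0 ppm from the supplemented mean by limma, where 6.61% of all tested liver genes were called. The count by edgeR was 0 of 10, beside 7.24% of all genes. None reached an unadjusted p below 0.05 by limma, beside 20.2% of all genes, or by edgeR, beside 20.8%, and the lowest limma adjusted p was 0.410. The liver effect minus the brain effect was called for 0 of 10, where 1.98% of all genes were called by limma and 1.83% by edgeR, which called 0 of 10 too. No gene of the 10 was below an unadjusted p of 0.05 by limma, beside 6.10% of all genes higher and 7.91% lower, or by edgeR, beside 12.8% in either direction, and the lowest limma adjusted p was 0.648. For the genes near the floor these tests have little to act on.

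**Figure D4:**
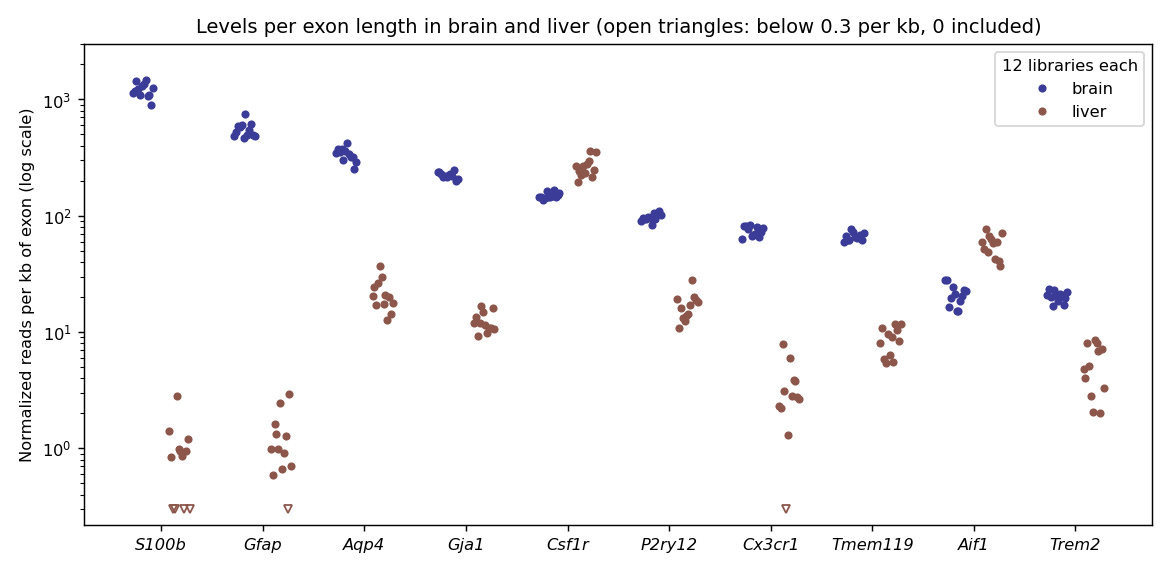
Normalized reads per kb of annotated exon (y axis, log scale) in the 12 brain and 12 liver libraries for each of the 10 genes, ordered by brain mean. Open triangles stand for libraries below 0.3 per kb, 0 included. S100b and Gfap reach 1208 and 552 per kb in brain and lie near the floor of 3 reads in liver. Csf1r and Aif1 lie higher in liver on this scale. It depends on the scaling between tissues, and the order of Csf1r is uncertain.

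Around the 10 genes, lists of further genes of the same cells were read for calls. Among 22 other astrocyte genes, limma called 0 in each of the 5 brain comparisons, with at most 3 below an unadjusted p of 0.05, and edgeR called 0. Among 27 other genes of surveying microglia it called 0, with at most 2 below an unadjusted p of 0.05, and edgeR called 0. Among 21 measured genes of disease-associated microglia it called 0, with 6 below an unadjusted p of 0.05 for 2.25 against 0.1 ppm by limma and 4 by edgeR, and edgeR called 0. Among 12 ligands and partners of the microglial receptors and 12 partners of the astrocyte proteins, Gja1 included, limma and edgeR called 0, with at most 2 and 3 below an unadjusted p of 0.05. Over all genes, limma gave such a p to 5.55% to 9.46% in the other 4 comparisons. For 2.25 against 0.1 ppm, limma gave it to 6.44% higher and 6.61% lower, and edgeR to 12.9% in either direction. The list counts cover both directions, so the limma counts for 2.25 against 0.1 ppm compare with the sum of the higher and lower shares. The lists share genes such as Apoe and Tyrobp, so their counts are not independent.

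Of 23 measured genes of reactive astrocytes, 1 was called, Nes, which encodes nestin, an intermediate filament of neural progenitors, vessel cells and reactive astrocytes. It was called for any difference (beside 0.0189% of all genes), 0.4 against 0.1 ppm (0.00947%) and 2.25 against 0.1 ppm (0.435%). Nes had 175, 188 and 136 normalized reads at 0 ppm, 210.1, 348 and 284 at 0.1 ppm, 122, 109 and 96.1 at 0.4 ppm, and 129, 122 and 108 at 2.25 ppm. The 0.1 ppm libraries lay above every library of the other diets, and the 0 ppm libraries lay above those at 0.4 and 2.25 ppm. Nes is named because it was called, so a diet set apart follows in part from the pick. The share of all genes set apart in this way was not counted. Nes fell at 0.4 against 0.1 ppm, with means of 109 ± 12.9 and 281 ± 69.2 (SD, n = 3 each) and a log2 difference of -1.34 (SE 0.17, limma adjusted p = 0.0229). It fell likewise at 2.25 against 0.1 ppm, by 1.20 on the log2 scale (SE 0.17, limma adjusted p = 0.0251), and both comparisons share the 0.1 ppm libraries. The highest Nes value was in 0.1 ppm b, one of the pair rich in pituitary transcripts. The other of the pair, 0 ppm a, had 175 normalized reads. The library 0.1 ppm c, with summed pituitary markers of 589.9, had 284. In 0.1 ppm b summed endothelial markers were the lowest of the 12 libraries, at 2364 of a range up to 3178 normalized reads. Whether pituitary tissue or vessel cells had a part in the Nes values was not tested. Without the pituitary-rich pair the Nes differences were -1.17 (limma adjusted p = 0.104) and -1.03 (limma adjusted p = 0.0734). The 0.4 ppm call was also lost without any one of 0 ppm a, 0.1 ppm b or c, 0.4 ppm a, b or c, or 2.25 ppm b (limma adjusted p up to 0.224 over the alternatives). The 2.25 ppm call was lost without 0.1 ppm b, 0.4 ppm b, or 2.25 ppm a or c (up to 0.106). Both Nes calls were also lost with no mean-variance trend (adjusted p = 0.105 and 0.0892) and in the 6 libraries compared (0.0778 and 0.0732). The fitted Nes differences themselves stayed between -1.53 and -1.17 at 0.4 ppm and between -1.39 and -1.03 at 2.25 ppm over all alternatives. Gfap, another intermediate filament gene, had a log2 difference of 0.09 at 0.4 against 0.1 ppm (SE 0.14, limma adjusted p = 0.920).

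Among 11 tested inflammatory genes, of 12 found in the deposited table, 1 was called, Nfkbia. Its product holds the transcription factor NF-kappa-B in the cytosol and is itself induced by it. This was for 2.25 against 0.1 ppm, where 0.435% of all genes were called. Nfkbia had 312, 265 and 206 normalized reads at 0 ppm, 386, 409.7 and 389 at 0.1 ppm, 255, 296 and 329 at 0.4 ppm, and 208, 255 and 208 at 2.25 ppm. Its 0.1 ppm libraries again lay above every library of the other diets. As for Nes, this follows in part from the pick of a called gene, and the share over all genes was not counted. Nfkbia fell at 2.25 against 0.1 ppm, by 0.82 on the log2 scale (SE 0.14, limma adjusted p = 0.0261), with means of 224 ± 26.7 and 395 ± 12.9 (SD, n = 3 each). The call was lost without the pair rich in pituitary transcripts (adjusted p = 0.0759) and without any one of 0.1 ppm a, b or c, 0.4 ppm b, or 2.25 ppm a or c (adjusted p = 0.0506 to 0.110). It was also lost with no mean-variance trend (adjusted p = 0.0908) and in the 6 libraries compared (0.0549). The fitted Nfkbia difference stayed between -0.92 and -0.77 over all alternatives.

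The other named genes of these lists fell short of the threshold in the fit to all 12 brain libraries, and some passed under an alternative. Fgfr3, a growth factor receptor of astrocytes, averaged 1240 ± 106 normalized reads at 0 ppm, 1579 ± 61.9 at 0.1 ppm, 1651 ± 24.5 at 0.4 ppm and 1760 ± 187 at 2.25 ppm (SD, n = 3 each). All 0 ppm libraries lay below all others, and the log2 difference from the supplemented mean was -0.42 (SE 0.06, limma adjusted p = 0.0559). Mertk, a receptor for engulfing dying cells that microglia and astrocytes use, averaged 374 ± 49.6 at 0 ppm, 566 ± 98.4 at 0.1 ppm, 559 ± 26.7 at 0.4 ppm and 514 ± 21.2 at 2.25 ppm (SD, n = 3 each). Its 0 ppm libraries also lay below all others, with a log2 difference from the supplemented mean of -0.55 (SE 0.09, limma adjusted p = 0.0922). Fgfr3 passed in 3 of 20 alternatives for 0 ppm against the supplemented mean, with robust moderation (adjusted p = 0.0319), without 0 ppm c (0.0236) or without 2.25 ppm a (0.0352). Mertk passed in 1 of 20, without 0.1 ppm a (adjusted p = 0.0191). For any difference among diets, Fgfr3 passed in 1 of 20, with robust moderation (adjusted p = 0.0463). Fgfr3 and Mertk were picked by rule as the genes of their lists with the smallest p for any difference, so a diet set apart follows in part from the pick. The share of all genes with 1 diet set apart from the other 3 was not counted.

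At 2.25 against 0.1 ppm, Id3, a repressor of helix-loop-helix factors, had a log2 difference of 0.52 (SE 0.10, limma adjusted p = 0.0505). Id3 passed in 5 of 21 alternatives, among them without 0 ppm c (adjusted p = 0.0342), with a range of 0.0342 to 0.147 over all 21. Tjp1, a tight junction protein that binds connexin 43, had 0.35 (SE 0.08, limma adjusted p = 0.0755), and passed in 1 of 21 alternatives, without 0 ppm c (0.0298). Il34, a ligand of the CSF1 receptor, had 0.36 (SE 0.12, limma adjusted p = 0.204). Spp1, osteopontin, a gene of disease-associated microglia, had 0.91 at 0.4 against 0.1 ppm (SE 0.18, limma adjusted p = 0.199), and passed in 2 of 21 alternatives, without 0.1 ppm b (0.0250) and without the pituitary-rich pair (0.0442). Fcrls, a microglia gene, had 0.29 at 0 ppm against the supplemented mean (SE 0.10, limma adjusted p = 0.801). Trpv4, a channel of astrocyte endfeet, had -0.47 in the same comparison (SE 0.15, limma adjusted p = 0.727). Adam10, the protease that sheds fractalkine and TREM2, had 0.13 at 2.25 against 0.1 ppm (SE 0.06, limma adjusted p = 0.353), and Itgax, near the floor at 1.18 to 5.05 normalized reads by diet, had an adjusted p of 0.313 by limma there.

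**Figure D5:**
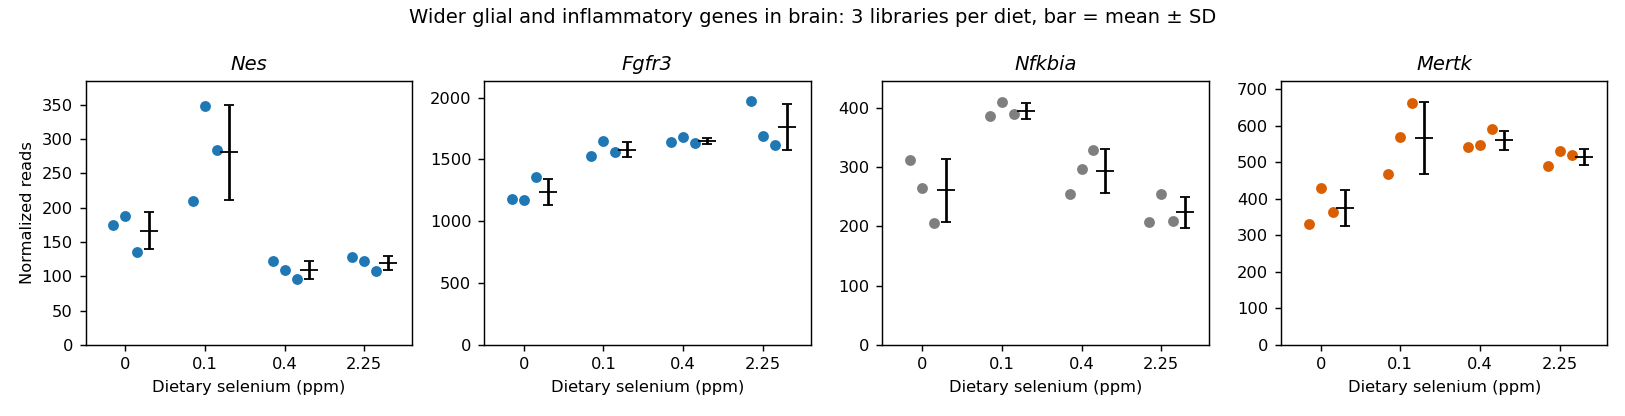
Normalized reads of Nes, Fgfr3, Nfkbia and Mertk in each brain library (y axis, starting at 0) by dietary selenium in ppm (x axis), with the mean ± SD of 3 libraries as bars. For Nes and Nfkbia the 0.1 ppm libraries lie above every library of the other diets. For Fgfr3 and Mertk the 0 ppm libraries lie below all others. The genes were picked by their p-values, so a diet set apart follows in part from the pick.

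Macrophages other than microglia express Csf1r, Cx3cr1, Aif1 and Trem2 too. Of 7 markers of border macrophages 7 were measured and summed to 173 to 274 normalized reads over the brain libraries, and 5 Kupffer cell markers summed to 0.584 to 3.97. Markers of blood leukocytes summed to 9.17 to 320.3, highest in 0 ppm c. That library held the lowest Csf1r and not the highest value of any microglia gene, while its Cx3cr1, 369 normalized reads, stood near the highest, 373. Whether blood cells had a part in the microglia values was not tested. The summed microglia genes themselves ranged from 1627 to 1890.2 normalized reads and the summed astrocyte genes from 7045 to 10065 over the 12 brain libraries.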

How the data were processed

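RNA from brain and liver was sequenced in 24 libraries, 8 groups of 3. Per the labels' protocols the extraction used TRIzol, and the libraries a TruSeq Stranded Total RNA kit. The tools in the submitters' processing notes are limma 3.34.5, RSEM 1.3.0, STAR 2.5.2b, Trimmomatic 0.33 and bcl2fastq 2.17, and the build is mm10. The deposited values are a normalized signal per gene, which the authors made by dividing reads by 1 factor per library. Multiplying back by the factor gave whole reads, to within 0.01, for 525456 of 525456 values (100%). The authors also deposited p-values for each pair of diets.

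Diets were compared with limma 3.58.1 (R 4.3.3) on the log2 of value plus 1, with a mean-variance trend. Genes had to reach 1 in 3 or more of the libraries fitted. The 12 libraries of a tissue entered a single fit, and all 24 the difference between tissues. Benjamini-Hochberg adjustment covered every gene tested. Differences on this scale understate the change of low genes. The recovered reads were tested with the quasi-likelihood test of edgeR 4.0.16 and TMM scaling. Correlations used 100000 permutations. Within diets, the 12 pairs of brain libraries had a chi-square per gene of 4.01 to 20.0 over genes with at least 20 reads, above sampling noise, so no library was taken for another deposited again. This does not show that they came from separate animals. The fits were tested on simulated data. Exon lengths came from GENCODE M21.

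The 10 genes and the lists around them were chosen with earlier results of these data known. Named from the lists were up to 4 genes past the threshold in a brain comparison, or else the 2 with the smallest p for any difference.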

Additional observations from a re-analysis of the deposited data

How the results depend on the processing

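Over 1539 refits of the 10 genes in the 7 comparisons, under a pseudocount of 0.1, no filter or one at 4, no mean-variance trend, robust moderation, quantile normalization, edgeR, no pituitary-rich libraries, only the 6 libraries compared, and each library left out, 0 were called. The lowest adjusted p was 0.208, and the fitted sign differed from the main one in 100 of them. Counts of called genes moved more. For any difference among diets (4 genes) they were 30 with robust moderation, 1 without the pituitary-rich pair and 1 to 13 with a library left out. For 0 ppm against the supplemented mean (4) they were 2 with quantile normalization, 1 with no trend, 8 with robust moderation, 1 with edgeR, 1 without the pair and 1 to 10 with a library left out. For 0 against 0.1 ppm (6) they were 1 with no trend, 0 without the pair, 0 in the 6 libraries compared and 0 to 6 with a library left out. For 0.4 against 0.1 ppm (2) they were 4 with no trend and 0 to 4 with a library left out. For 2.25 against 0.1 ppm (92) they were 12 with no trend, 3 without the pair, 0 in the 6 libraries compared and 0 to 149 with a library left out. The liver count (1252) was 488 with no trend and 535 to 1509 with a library left out. For liver minus brain (433) it was 287 with quantile normalization, 256 with no trend, 185 without the pair and 200 to 818 with a library left out. Nes lost its call for any difference (adjusted p = 0.0460) in 15 of 20 alternatives, with an adjusted p of up to 0.190. No paired analysis was possible because the columns carry no replicate numbers. Depth limits Aif1 in brain, with 32 to 64 reads, and S100b and Gfap in liver.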
